A study of Homo sapiens with 18 samples.

Results

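The nuclear-encoded subunits of the mitochondrial respiratory chain and ATP synthase were described as a set of 82 genes. They are the protein-coding genes whose symbols name a subunit of complex I (NDUFA, NDUFB, NDUFC, NDUFS or NDUFV with a number), complex II (SDHA to SDHD), complex III (UQCR genes and CYC1), complex IV (COX4 to COX8 genes) or ATP synthase, also called complex V (ATP5 genes), without the assembly factors. Of 63677 gene identifiers counted, 88 matched, and the 82 with 10 or more reads in at least 3 libraries were kept: 38 of complex I, 4 of complex II, 10 of complex III, 12 of complex IV and 18 of complex V. All 82 were among the 15179 genes tested. The symbols were picked without use of a measured difference between groups, though earlier results of these data were known. The read filter let in COX6B2 only through the group where it was highest. By symbol the set also takes in COX7A2L, a factor of supercomplex assembly, ATP5IF1, the inhibitor of ATP synthase, and NDUFA4, which is now counted in complex IV. NDUFA4 and its paralogue NDUFA4L2 are grouped with complex I here by symbol alone.

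The study sequenced polyadenylated RNA of HAP1, an adherent line with a nearly haploid genome that descends from a chronic myeloid leukaemia, in 6 groups of 3 libraries. The parental line (WT), a line with an ATG7 knockout (ATG7KO) and a line with an RB1CC1 knockout (RB1CC1KO; RB1CC1 is also called FIP200) were each either fed with full medium or starved with EBSS (a balanced salt solution with glucose, without serum or amino acids) over 6 h. ATG7 is the E1-like enzyme of autophagosome formation, and RB1CC1 is a scaffold of the kinase complex that starts autophagy. Each genotype is a single cell line, so that a knockout and other differences between its line and WT cannot be told apart. ATG7 stood at 15.6 ± 1.30 CPM in fed WT and at 4.02 ± 0.436 CPM in fed ATG7KO (-1.95 ± 0.12 on the log2 scale, adjusted p = 8.8e-15). After EBSS it stood at 16.1 ± 1.68 CPM in WT and at 10.4 ± 0.533 CPM in ATG7KO, so that the gap was smaller in the starved libraries (-0.62 ± 0.12, adjusted p = 0.00015). ATG7 RNA rose with EBSS in ATG7KO (1.38 ± 0.13) and was not called in WT (0.05 ± 0.10), and the difference between these responses was 1.33 ± 0.17 (adjusted p = 6.1e-06). RB1CC1 was not lower but higher in the fed libraries labelled RB1CC1KO (157 ± 12.7 CPM, against 105 ± 10.3 CPM in fed WT). In edgeR's quasi-likelihood test the difference was 0.58 ± 0.07 on the log2 scale (adjusted p = 8.3e-08). Between the starved libraries it was 0.25 ± 0.07 (adjusted p = 0.0047). RB1CC1 RNA thus does not check the label. The line is called RB1CC1KO-labelled below.

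Complexes I and II pass electrons from NADH and succinate to coenzyme Q, complex III passes them on to cytochrome c, and complex IV hands them to oxygen. Complexes I, III and IV pump protons as they do so, and ATP synthase uses the gradient to make ATP. Complex II is wholly nuclear-encoded, while each of the others joins nuclear-encoded subunits with a few made in the mitochondrion, and the nuclear genes are known as targets of the transcription factors NRF1, GABP (an ETS factor, also called NRF-2) and YY1.

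Promoter sequences are shown for members that carry the results below: SDHA, which rose in every line, NDUFV3, NDUFA11 and UQCRQ, which fell in every line, and ATP5MC1 and ATP5MC2, a pair of genes for the same mature protein, of which the first alone was called after EBSS. Each is the 250 bases before the start of the gene in RefSeq (GRCh38.p14), 5′ to 3′ on the gene's own strand. Capitals mark, on either strand, the NRF1 motif (GCGC, then any base, then T, then GCGC) and the ETS motif (CCGGAAG). The windows are chr5:218070-218319, plus strand, for SDHA, chr21:42893059-42893308, plus strand, for NDUFV3, chr19:5903791-5904040, minus strand, for NDUFA11, chr5:132866392-132866641, plus strand, for UQCRQ, chr17:48892537-48892786, plus strand, for ATP5MC1, and chr12:53676084-53676333, minus strand, for ATP5MC2.
SDHA: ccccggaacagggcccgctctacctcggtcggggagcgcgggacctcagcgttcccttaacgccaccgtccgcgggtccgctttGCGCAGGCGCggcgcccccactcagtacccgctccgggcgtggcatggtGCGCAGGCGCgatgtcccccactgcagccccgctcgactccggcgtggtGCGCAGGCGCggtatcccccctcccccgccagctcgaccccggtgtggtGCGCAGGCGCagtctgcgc
NDUFV3: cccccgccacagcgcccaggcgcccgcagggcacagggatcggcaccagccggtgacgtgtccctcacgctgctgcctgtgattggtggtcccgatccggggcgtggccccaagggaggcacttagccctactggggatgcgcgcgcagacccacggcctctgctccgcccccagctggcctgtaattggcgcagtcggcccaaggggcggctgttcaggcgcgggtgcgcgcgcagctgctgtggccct
NDUFA11: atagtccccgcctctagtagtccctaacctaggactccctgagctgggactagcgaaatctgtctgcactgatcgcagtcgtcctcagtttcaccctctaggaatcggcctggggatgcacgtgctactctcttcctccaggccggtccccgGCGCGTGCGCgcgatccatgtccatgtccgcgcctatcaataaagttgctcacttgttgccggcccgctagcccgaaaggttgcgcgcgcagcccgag
UQCRQ: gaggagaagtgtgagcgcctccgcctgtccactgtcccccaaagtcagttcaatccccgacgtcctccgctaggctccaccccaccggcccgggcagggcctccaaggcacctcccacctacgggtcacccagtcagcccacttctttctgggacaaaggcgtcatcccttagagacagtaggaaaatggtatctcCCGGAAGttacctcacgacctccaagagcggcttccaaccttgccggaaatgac
ATP5MC1: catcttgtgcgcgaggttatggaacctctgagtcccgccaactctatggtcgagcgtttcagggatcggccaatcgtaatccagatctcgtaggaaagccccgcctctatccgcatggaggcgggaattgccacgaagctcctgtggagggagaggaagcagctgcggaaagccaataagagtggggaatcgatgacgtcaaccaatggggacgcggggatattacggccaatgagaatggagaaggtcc
ATP5MC2: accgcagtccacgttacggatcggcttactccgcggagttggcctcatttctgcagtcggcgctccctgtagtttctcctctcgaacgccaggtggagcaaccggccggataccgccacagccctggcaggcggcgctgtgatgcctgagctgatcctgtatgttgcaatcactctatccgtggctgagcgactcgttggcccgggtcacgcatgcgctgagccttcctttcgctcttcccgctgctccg
The SDHA window holds the NRF1 letters 4 times, beginning 166, 117, 68 and 19 bases before the start. In NDUFA11 they occur once, beginning 98 bases before the start, and the UQCRQ window holds the ETS letters 54 bases before it. The windows of NDUFV3, ATP5MC1 and ATP5MC2 hold neither.

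Motif shares were counted over the set. A promoter was found in the RefSeq table for 66 of the 82 members, and motifs were counted on either strand in the 250 bases before and 50 bases after each start. The NRF1 motif was present in 16 of 66 members (24.2%), against 6.28% of all 27305 promoters in the table and 11.5% of those of tested protein-coding genes. CCGGAAG was present in 30.3% of members, against 10.7% and 18.8%. AAGATGGC, the YY1 motif, was present in 16.7% of members, against 3.03% and 5.29%. In the 100 bases before the start alone the YY1 letters were found in 1.52% of members, so that most of their matches lay outside that stretch. The ETS motif ends in the letters AAG with which the YY1 motif begins, so that a stretch can count for both. Of the 11 members with the YY1 letters, none was called after EBSS in WT in edgeR's quasi-likelihood test (3 had an unadjusted p below 0.05). Of the 55 without them 21 were called, as were 64.5% of all genes tested. This difference was not tested, and the median log2 fold changes were -0.06 and -0.05. With the NRF1 letters 1 of 16 members rose and 4 fell in WT, and without them 2 of 50 rose and 14 fell. With the ETS letters 0 of 20 rose and 5 fell, and without them 3 of 46 rose and 13 fell. In ATG7KO 3 of the 11 members with the YY1 letters fell, while 30.6% of all genes fell. In the RB1CC1KO-labelled line 1 of them rose and 2 fell, while 31.9% of all genes rose and 33.3% fell. These matches are descriptions of letters in a window.

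Depth was 4892072 to 26005942 reads in genes per library, and ATG7KO EBSS replicate 3 was the shallowest. Members took 0.774 to 0.897% of the reads in genes in the 9 fed libraries and 0.679 to 0.770% in the 9 starved ones. Genes of the mitochondrial genome took 3.24 to 4.26% of reads when fed and 1.41 to 2.36% when starved. Both shares were lower in every starved library than in any fed one. Levels are given as CPM, read counts relative to library size, with library sizes scaled by the TMM method. On this scale the members' summed level overlapped between fed and starved libraries (7306 to 8514 CPM and 7148 to 8330 CPM). In bulk RNA, fewer cells and less RNA per cell cannot be told apart. A gene is said to have been called, to have risen or to have fallen where its adjusted p in edgeR's quasi-likelihood test was below 0.05 over all 15179 genes.

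Levels ranged widely within the set. ATP5F1B, the catalytic beta subunit of ATP synthase, was highest per kilobase of annotated exon, at 437 ± 15.1 CPM per kb in fed WT (SD, n = 3). On the same scale the highest member of complex I was NDUFS5 (173 ± 21.1 CPM per kb), of complex II SDHB (42.2 ± 2.13), of complex III CYC1 (85.8 ± 7.93) and of complex IV COX5A (150.2 ± 4.23). The lowest were NDUFA4L2 (0.263 ± 0.115 CPM per kb), SDHC (2.33 ± 0.0853), UQCRHL (0.596 ± 0.157), COX6B2 (0.149 ± 0.0521) and ATP5PO (11 ± 1.02). SDHC has 14160 exon bases in GENCODE 29, the annotation used, which lowers its value on this scale. NDUFV2, an iron-sulfur subunit that pairs with NDUFV1 in the NADH-oxidising module, had 530 reads over all 18 libraries, against 59056 for NDUFV1. The pseudogene NDUFV2P1 had 151 reads and NDUFV2-AS1, which overlaps NDUFV2 on the other strand, had 108. Reads of NDUFV2 could have been shared or lost in counting, which was not tested, so that its count may not give its expression.

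The alternative isoforms used by muscle and other specialised tissues were near 0 in HAP1 cells. COX4I2, COX6A2 and COX7B2 had no read in any library, COX7A1 had 2 reads, COX8C 11 and ATP5MGL 8, and these 6 genes form the part of the symbol list that was not kept. The muscle markers MYH7, TNNT2, ACTC1, CKM, MYL2 and DES together reached at most 0.703 CPM in any library. The set's own markers were well expressed in every library: NDUFS1, an iron-sulfur core subunit of complex I, between 216 and 266 CPM, SDHA between 141 and 199 CPM, and UQCRC1, a structural subunit of complex III, between 184 and 240.0 CPM. Of markers of other cell types, 3 of 8 haematopoietic, 4 of 7 fibroblast and 4 of 5 epithelial genes passed the filter for testing. DCN had 0 reads in every library, and PTPRC in 5 of the 6 groups. Summed haematopoietic markers were 57.6 to 68.6 CPM in fed WT and 27.8 to 32.8 CPM in starved WT, 20.0 to 20.7 and 6.15 to 8.59 CPM in ATG7KO, and 71.1 to 78.5 and 27.7 to 29.8 CPM in the RB1CC1KO-labelled line. They were thus lower after EBSS in every line, and their part in the members' response was not tested.

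Starvation left the levels of most respiratory chain genes of WT cells within a narrow range, and the members that moved were mostly lower. Of 82 members, 5 rose and 24 fell, while 64.5% of all genes tested were called (32.4% higher, 32.1% lower). Falls were thus about as frequent among members as among all genes, and rises were rarer. The members' median log2 fold change was -0.05, and that of all genes was -0.02. Only 2 called members, NDUFV3 and COX6B2, changed at least 2-fold (2.44%), against 19.7% of all genes. The log2 fold change lay within 0.5 of 0 for 71 members (86.6%) and for 54.3% of all genes, and the median size of the change was 0.14 for members and 0.45 for all genes. At a mean log2 CPM of at least 4, 24 of 73 members were called (32.9%), against 71.1% of 8329 protein-coding genes. The number that rose was 2 without WT EBSS replicate 1, 3 without WT full replicate 3 and 8 without WT EBSS replicate 3. With upper-quartile scaling, which put the median of all genes at -0.17 and the share of higher calls among all calls at 37.4% in place of 50.3%, 2 members rose and 40 fell.

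**Figure D1:**
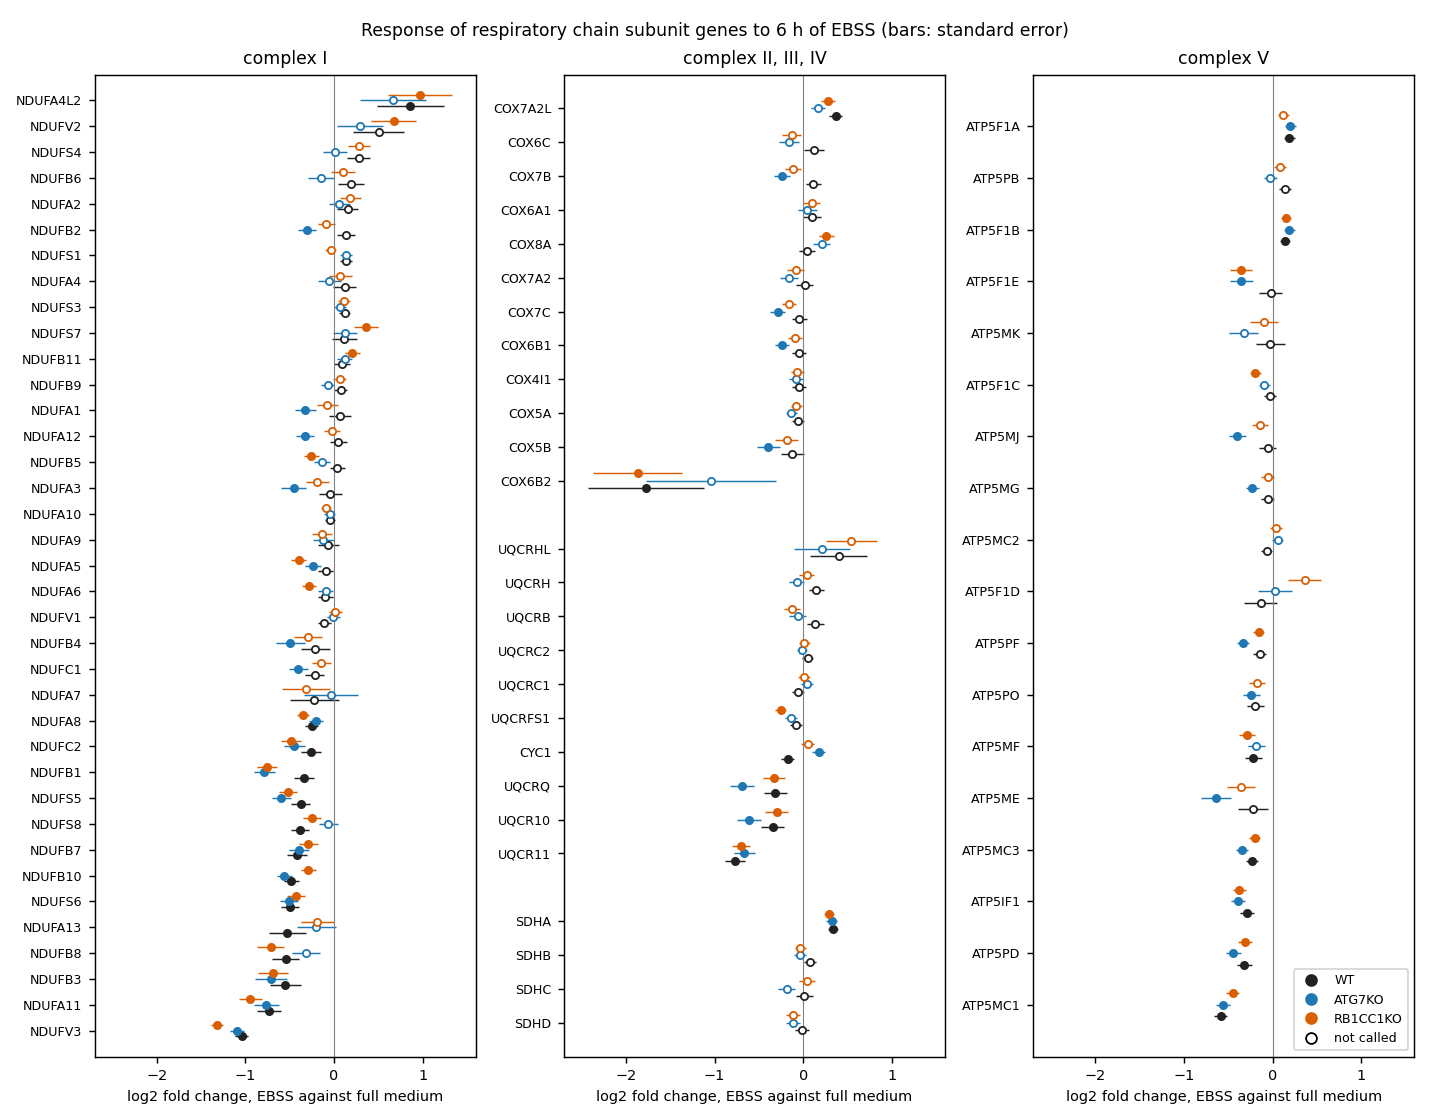
Log2 fold change of the members, all but 1 of the 82, after 6 h of EBSS (horizontal axis), by complex, with points for WT (black), ATG7KO (blue) and the RB1CC1KO-labelled line (orange), filled where called, and bars for the standard error. Most members lie within 0.5 of 0, NDUFV3 is near or below -1 in each line, and SDHA is near 0.3 in each.

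Of the 38 genes of complex I, 14 fell and 1 rose in WT, with a median log2 fold change of -0.10, while 32.1% of all genes fell. NDUFV3, an accessory subunit of the NADH-oxidising module, stood at 58.1, 56.8 and 53.8 CPM in fed WT and at 27.2, 26.7 and 28.1 CPM after EBSS. The groups did not overlap, and the level after EBSS was below 30 CPM in every starved library of the study. The log2 fold change was -1.04 ± 0.07 (standard error; adjusted p = 9.7e-15). NDUFA11, an accessory subunit of the membrane arm, went from 11.5, 12.4 and 14 CPM to 8.30, 7.38 and 7.11 CPM, again without overlap (-0.73 ± 0.14, adjusted p = 1.7e-05). NDUFB3, another membrane-arm accessory subunit, stood at 30.6, 33.7 and 25.3 CPM and then at 17.9, 25.9 and 17.6 CPM, where the highest starved library was above the lowest fed one (-0.55 ± 0.18, adjusted p = 0.013).

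The 7 nuclear-encoded core subunits of complex I, which carry the flavin and the iron-sulfur clusters, are the parts without which it cannot oxidise NADH. Among them NDUFS8 fell in WT (-0.38 ± 0.10, adjusted p = 0.0025). NDUFS1 stood at 217, 240.5 and 245 CPM in fed WT and at 261, 261 and 249 CPM after EBSS. Every starved library was higher than every fed one, by a small margin that did not pass the test (0.14 ± 0.06, adjusted p = 0.059) and had the opposite sign with upper-quartile scaling (-0.016). The member that rose was NDUFA4L2, grouped with complex I by symbol alone, a paralogue of NDUFA4 known as a target of hypoxia-inducible factor. It stood at 1.10, 0.645 and 0.472 CPM fed and 1.28, 0.813 and 1.92 CPM starved. These are 34 and 61 reads in all and the groups overlapped (0.86 ± 0.38, adjusted p = 0.046), and the call was lost under 9 of 13 alternatives.

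In complex II, which is also an enzyme of the tricarboxylic acid cycle, SDHA alone was called. SDHA, the flavoprotein that oxidises succinate, was at 148, 156 and 151 CPM in fed WT and at 193, 192 and 189 CPM after EBSS. The lowest starved library lay well above the highest fed one, with a log2 fold change of 0.33 ± 0.06 (adjusted p = 7.3e-06). SDHB, the iron-sulfur subunit (0.08 ± 0.07), and the membrane anchors SDHC (0.01 ± 0.09) and SDHD (-0.02 ± 0.08) were not called. SDHA is among the 45 members after which at least 1 pseudogene is named, and reads of near-identical copies could have been shared or lost in counting.

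In complex III, with 10 members, those that fell were 3 small membrane subunits and CYC1, while 32.1% of all genes fell. UQCR11 was at 26.1, 23.1 and 23.7 CPM in fed WT and at 15, 14.2 and 13.5 CPM after EBSS, with no overlap (-0.77 ± 0.11, adjusted p = 1.4e-07). UQCR10 (-0.34 ± 0.13, adjusted p = 0.029) and UQCRQ (-0.32 ± 0.13, adjusted p = 0.041) also fell, and each of these calls was lost under 5 of 13 alternatives. CYC1, cytochrome c1, which passes electrons to cytochrome c, fell by 0.17 on the log2 scale (standard error 0.07, adjusted p = 0.038). UQCRC1 stood at 222, 193 and 224 CPM and at 217, 184 and 213 CPM, and the groups overlapped (-0.06 ± 0.07). UQCRC2, its structural partner (0.05 ± 0.06), and UQCRFS1, the Rieske iron-sulfur protein (-0.08 ± 0.07), were not called.

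Complex IV was nearly flat, with 1 member higher and 1 lower of 12, while 32.4% of all genes rose and 32.1% fell. COX7A2L rose from 65.9, 71.9 and 55.6 CPM to 84.4, 88.3 and 77.4 CPM (0.36 ± 0.08, adjusted p = 0.0001), and no starved library was as low as any fed one. COX6B2, the testis form of COX6B1, fell from 0.731, 0.347 and 0.63 CPM to 0.213, 0.125 and 0.128 CPM (-1.78 ± 0.66, adjusted p = 0.018). Those values come from 25 and 7 reads. The other 10 members, among them COX4I1 (-0.05 ± 0.08) and COX5A (-0.06 ± 0.07), lay between -0.13 and 0.12.

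Of the 18 members of ATP synthase 2 rose and 5 fell in WT, while 32.4% of all genes rose and 32.1% fell. ATP5F1A, the alpha subunit (0.19 ± 0.06, adjusted p = 0.0089), and ATP5F1B, the beta subunit (0.14 ± 0.06, adjusted p = 0.035), rose in WT. With upper-quartile scaling neither was called (0.036, adjusted p = 0.62, and -0.012, adjusted p = 0.858), and the call of ATP5F1B was lost under 8 of 13 alternatives. ATP5F1B stood at 1019.8, 978 and 1047 CPM fed and at 1162, 1080.0 and 1113 CPM starved. These libraries did not overlap. The other subunits of the catalytic head, ATP5F1C (-0.03 ± 0.06), ATP5F1D (-0.14 ± 0.19) and ATP5F1E (-0.02 ± 0.13), were not called. ATP5IF1, which blocks ATP hydrolysis by the enzyme, fell by 0.29 on the log2 scale (adjusted p = 0.0015), and ATP5PD, of the peripheral stalk, by 0.32 (adjusted p = 0.0011).

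The 3 genes for the c subunit of the rotor ring, whose products differ in their import sequences but give the same mature protein, were not all called. ATP5MC1 went from 58.8, 57.5 and 59.8 CPM in fed WT to 37.8, 41.1 and 38.3 CPM after EBSS (-0.59 ± 0.08, adjusted p = 3.9e-08). ATP5MC3 went from 180.1, 181 and 176 CPM to 156, 156 and 146 CPM (-0.23 ± 0.07, adjusted p = 0.0035). ATP5MC2 stood at 160.0, 157 and 155 CPM fed and 149, 149 and 152 CPM starved, which did not pass the test (-0.07 ± 0.07, adjusted p = 0.37). Its starved libraries were nonetheless all below its fed ones. Per kilobase of exon in fed WT the levels were 22.4 ± 0.426 CPM for ATP5MC1, 39.4 ± 0.671 for ATP5MC2 and 26.4 ± 0.448 for ATP5MC3.

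**Figure D2:**
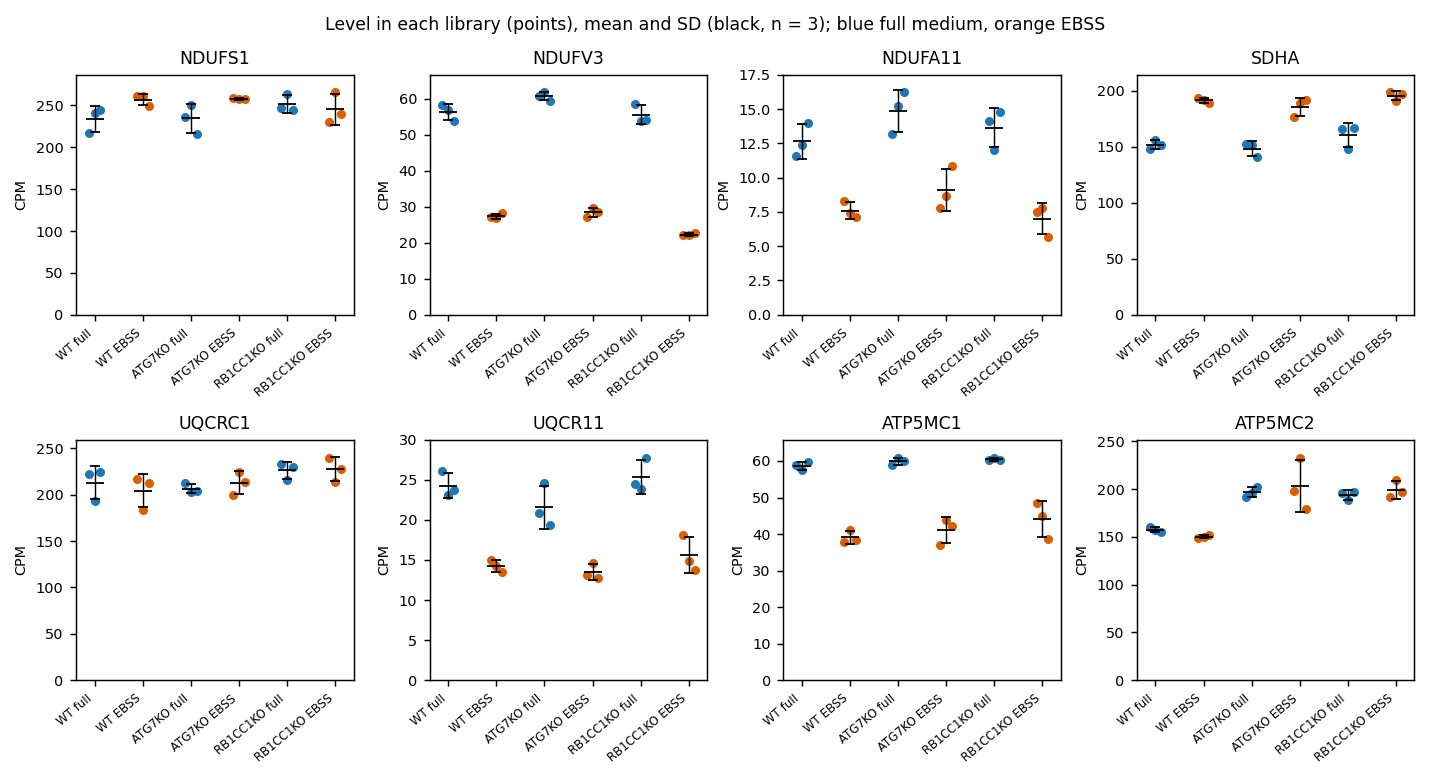
Level of 8 members in each library in TMM-scaled CPM (vertical axis, from 0), with fed libraries in blue, starved ones in orange and the mean and SD of each group in black (n = 3). NDUFV3, NDUFA11, UQCR11 and ATP5MC1 are lower after EBSS in each line, SDHA is higher, and ATP5MC2 is higher in both knockout-labelled lines than in WT in either medium.

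More members fell than rose in the other lines too. In ATG7KO 4 members rose and 34 fell (62.9% of all genes called, 32.3% higher and 30.6% lower), with a median of -0.16 for members and -0.01 for all genes. In the RB1CC1KO-labelled line 8 rose and 29 fell (65.1% of all genes called, 31.9% higher and 33.3% lower), with medians of -0.13 and -0.03. With upper-quartile scaling, 1 rose and 57 fell in ATG7KO, and 2 rose and 52 fell in the RB1CC1KO-labelled line. The share of higher calls among all genes went from 51.3% to 37.2% in ATG7KO and from 48.9% to 37.0% in the RB1CC1KO-labelled line. Without ATG7KO EBSS replicate 2, 1 member rose in ATG7KO and the median was -0.25. In the RB1CC1KO-labelled line 3 members rose without EBSS replicate 1 or without full replicate 2, and 19 fell without full replicate 3, which also put the median at -0.05.

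By complex, ATG7KO had 17 members lower in complex I, 1 higher in complex II, and 1 higher and 3 lower in complex III. It had 4 lower in complex IV, and 2 higher and 10 lower in complex V, while 32.3% of all genes rose and 30.6% fell. The 4 of complex IV were COX5B (-0.39 ± 0.13), COX7C (-0.29 ± 0.08), COX7B (-0.24 ± 0.09) and COX6B1 (-0.24 ± 0.08), none of which was called in WT. UQCRQ stood at 54.4, 48.8 and 48.6 CPM in fed ATG7KO and at 24.3, 33.4 and 39.5 CPM after EBSS, where the starved libraries were spread but all below the fed ones (-0.69 ± 0.13). In the RB1CC1KO-labelled line complex I had 4 members higher and 16 lower, complex II 1 higher, and complex III 4 lower. Complex IV had 2 higher and 1 lower there, and complex V 1 higher and 8 lower, while 31.9% of all genes rose and 33.3% fell.

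The 8 members that rose in the RB1CC1KO-labelled line were NDUFA4L2 (0.97 ± 0.36), NDUFV2 (0.67 ± 0.26), NDUFS7 (0.36 ± 0.13), NDUFB11 (0.20 ± 0.08), SDHA, COX7A2L (0.28 ± 0.08), COX8A (0.26 ± 0.09) and ATP5F1B. NDUFS7 carries the last iron-sulfur cluster before coenzyme Q. NDUFV2, which holds an iron-sulfur cluster beside the flavin, stood at 1.53, 1.18 and 1.58 CPM fed and 2.19, 2.16 and 2.53 CPM starved, without overlap but at few reads. COX6B2 fell there from 0.885, 0.788 and 1.15 CPM to 0.178, 0.423 and 0.0703 CPM, which are 48 and 14 reads (-1.87 ± 0.50). It passed the filter of the set only through the fed libraries of this line, so that this fall is not independent of the filter.

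A group of 17 members fell in each of the 3 lines, which is 20.7% of the set, near the 23.3% of all genes that did so. It holds NDUFA8, NDUFA11, NDUFB1, NDUFB3, NDUFB7, NDUFB10, NDUFC2, NDUFS5, NDUFS6 and NDUFV3 of complex I, all accessory subunits, the small subunits UQCR10, UQCR11 and UQCRQ of complex III, and ATP5IF1, ATP5MC1, ATP5MC3 and ATP5PD of ATP synthase. No gene of complex II, which has 4 members, or of complex IV, which has 12, is in it. Most of the 38 members of complex I are accessory subunits. Whether the makeup of the 17 differs from that of the set was not tested. NDUFV3 fell by 1.09 on the log2 scale in ATG7KO and by 1.32 in the RB1CC1KO-labelled line, NDUFA11 by 0.76 and 0.94, and NDUFB1 by 0.79 and 0.76. SDHA (0.32 ± 0.06 in ATG7KO, 0.29 ± 0.06 in the RB1CC1KO-labelled line) and ATP5F1B (0.19 ± 0.06 and 0.15 ± 0.06) were the members that rose in all 3 lines (ATP5F1B in ATG7KO was at 0.027 and not called with upper-quartile scaling), 2.44% of the set against 25.2% of all genes. In no line were 28 members called (34.2%, against 19.8% of all genes).

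CYC1 was the member called in opposite directions, lower in WT and higher in ATG7KO (0.17 ± 0.07, adjusted p = 0.042). Its levels were 187, 157 and 164 CPM in fed WT, 154, 141 and 156 CPM in starved WT, 158, 153 and 159 CPM in fed ATG7KO and 161, 188 and 181 CPM in starved ATG7KO. The call in ATG7KO was lost under 10 of 13 alternatives. The difference between the responses was 0.35 ± 0.10 and did not pass edgeR's test (adjusted p = 0.098).

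Whether the response to EBSS differed between lines was tested directly. For ATG7KO against WT no member was called, against 1.05% of all genes (0.369% higher, 0.685% lower), and DESeq2 also called none; 2 members were higher and 8 lower at an unadjusted p below 0.05. For the RB1CC1KO-labelled line against WT none was called by edgeR or DESeq2, against 8.16% of all genes (2.68% higher, 5.47% lower), with 1 higher and 4 lower at an unadjusted p below 0.05. For ATG7KO the member with the smallest p after CYC1 was NDUFB2 (-0.44 ± 0.14, adjusted p = 0.13). For the RB1CC1KO-labelled line the smallest p was that of NDUFV3 (-0.28 ± 0.10, adjusted p = 0.088), followed by NDUFB1 (-0.42 ± 0.16, adjusted p = 0.106). The medians of these differences were -0.11 and -0.05 for members and 0.01 and -0.02 for all genes. Without RB1CC1KO full replicate 3 the second median was 0.04.

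**Figure D3:**
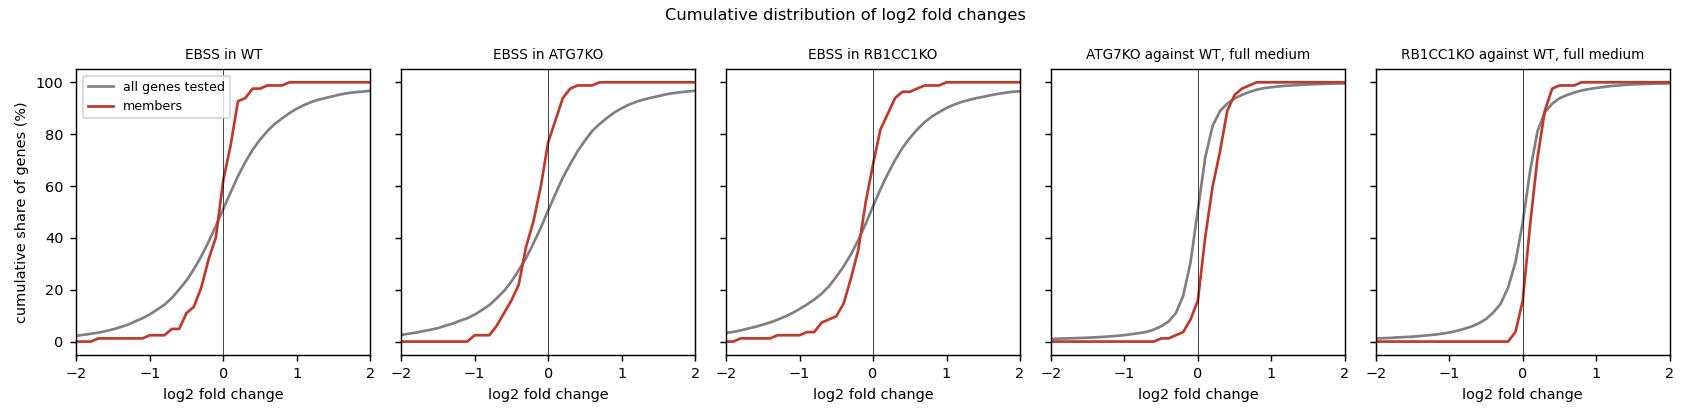
Cumulative share of genes in percent (vertical axis) by log2 fold change (horizontal axis) for the 82 members (red) and all 15179 genes tested (grey) in 5 comparisons. After EBSS the members' curves are steeper than those of all genes, and in both fed comparisons with WT they lie to the right, with medians of 0.15 and 0.11.

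In full medium every member called against WT was higher, by small amounts. In ATG7KO 16 of 82 members were higher and none lower, while 10.5% of all genes were called (4.47% higher, 6.07% lower); edgeR gave 29 members higher and 0 lower at an unadjusted p below 0.05, and DESeq2 called 21 higher and 0 lower. The median was 0.15 for members and 0.00 for all genes, and 69 members had a positive value. In the RB1CC1KO-labelled line 11 were higher and none lower, with 17.2% of all genes called (8.3% higher, 8.87% lower). At an unadjusted p below 0.05 the counts there were 23 and 1, and DESeq2 called 12 and 0; the median was 0.11 for members and 0.02 for all genes. Both comparisons use the same 3 fed WT libraries and are not independent of each other.

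The counts depended on single libraries. In ATG7KO 7 members were higher without ATG7KO full replicate 1 or without WT full replicate 3, and 9 without ATG7KO full replicate 2 or without WT full replicate 1. In a fit of only the 6 libraries compared the count was 26. In the RB1CC1KO-labelled line 1 member was higher without its full replicate 3, 4 without WT full replicate 3 and 6 without WT full replicate 1. The members' share of reads was highest in that library, RB1CC1KO full replicate 3 (0.897%), and lowest among fed libraries in WT full replicate 3 (0.774%). Summed epithelial markers were lower in both knockout-labelled lines (62.5 to 67.0 CPM in ATG7KO and 71.8 to 81.8 CPM in the RB1CC1KO-labelled line, against 102 to 113 CPM in fed WT). Summed haematopoietic markers were lower in ATG7KO (20.0 to 20.7 CPM, against 57.6 to 68.6 CPM in WT and 71.1 to 78.5 CPM in the RB1CC1KO-labelled line), and summed fibroblast markers were lower in the RB1CC1KO-labelled line (20.8 to 23.4 CPM, against 46.3 to 53.9 CPM in WT and 53.9 to 54.3 CPM in ATG7KO). Their part in the members' values was not tested.

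Among the members called in fed ATG7KO the largest differences were in ATP5ME, NDUFA1 and NDUFB1. ATP5ME, a subunit at the dimer interface of ATP synthase, stood at 36, 43.8 and 30.2 CPM in WT and at 56.6, 62.3 and 49.2 CPM in ATG7KO, without overlap (0.60 ± 0.16, adjusted p = 0.026). NDUFA1, a small membrane subunit of complex I, stood at 43.8, 40.3 and 34.6 CPM and 66.1, 60.7 and 52.3 CPM (0.59 ± 0.12, adjusted p = 0.0018), and NDUFB1 at 20.4, 22.8 and 15.6 CPM and 30.3, 29 and 26.7 CPM (0.54 ± 0.11, adjusted p = 0.00055). Neither pair of groups overlapped. These fed ATG7KO libraries are also the reference of the response to EBSS in that line, in which ATP5ME (-0.64 ± 0.17), NDUFA1 (-0.32 ± 0.12) and NDUFB1 fell, so that the 2 comparisons are not independent. NDUFB6 was higher by 0.49 ± 0.14. By complex, the 16 are 5 of complex I, 1 of complex III, 4 of complex IV and 6 of complex V. The markers NDUFS1 (0.00 ± 0.06), SDHA (-0.03 ± 0.06) and UQCRC1 (-0.04 ± 0.07) were not called.

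ATP5MC2 was higher in both knockout-labelled lines in both media. It stood at 192, 196 and 203 CPM in fed ATG7KO and 196, 188 and 198 CPM in the fed RB1CC1KO-labelled line, each library above the highest WT library. The log2 fold changes against WT were 0.32 ± 0.07 (adjusted p = 0.00055) and 0.30 ± 0.07 (adjusted p = 0.00086). When starved, the same gene was at 198, 233 and 179.7 CPM and 191, 209.6 and 197 CPM, which is 0.45 ± 0.07 and 0.41 ± 0.07 above starved WT (adjusted p = 3.7e-06 and 6.5e-06). In contrast ATP5MC1 was not called in any comparison between lines (0.03 ± 0.07 and 0.04 ± 0.07 in full medium), and ATP5MC3 was called in the RB1CC1KO-labelled line (0.20 ± 0.07 fed, adjusted p = 0.034, and 0.22 ± 0.07 starved, adjusted p = 0.0095), the fed call being lost under 7 of 13 alternatives.

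Other members higher in the fed RB1CC1KO-labelled line were NDUFA1 (0.39 ± 0.12), COX7B (0.32 ± 0.09), COX7C (0.29 ± 0.08), UQCRFS1 (0.28 ± 0.07), NDUFA5 (0.27 ± 0.09), COX5A (0.25 ± 0.06), ATP5PF (0.25 ± 0.07), NDUFA6 (0.24 ± 0.08) and ATP5F1B (0.19 ± 0.06). COX7B and COX7C are small membrane subunits of complex IV, and ATP5PF belongs to the peripheral stalk. UQCRFS1 stood at 71.6, 72.9 and 75.4 CPM in fed WT, 76.8, 77.4 and 74.7 CPM in fed ATG7KO and 86, 85.7 and 95.4 CPM in the fed RB1CC1KO-labelled line, whose libraries were all above the others. Set directly against fed ATG7KO, the RB1CC1KO-labelled line had 3 members higher and 2 lower (21.4% of all genes called, 11.4% higher and 9.99% lower). UQCRFS1 (0.22 ± 0.07), ATP5F1B (0.18 ± 0.06) and COX6B2 (1.36 ± 0.47, from 48 and 19 reads) were higher, and NDUFB1 (-0.29 ± 0.11) and NDUFB10 (-0.22 ± 0.08) were lower. COX6B2 reached 10 reads in 5 of the 18 libraries and passed the filter of the set only through the fed RB1CC1KO-labelled ones. Its higher value there is therefore not independent of the filter. No member was called higher without ATG7KO full replicate 3 or without RB1CC1KO full replicate 3. No member was called lower without ATG7KO full replicate 1, without RB1CC1KO full replicate 2 or with DESeq2, 1 was without ATG7KO full replicate 2 or 3, 5 were without RB1CC1KO full replicate 3, and 13 were in a fit of only the 6 libraries compared.

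The lines were also compared after EBSS. In starved ATG7KO 2 members were higher, ATP5MC2 and CYC1 (0.23 ± 0.07, adjusted p = 0.032), and none lower (13.2% of all genes called, 6.07% higher and 7.17% lower); edgeR gave 6 higher and 0 lower at an unadjusted p below 0.05, and DESeq2 called 1 and 0. The higher count was 4 without ATG7KO EBSS replicate 1 and 1 without ATG7KO EBSS replicate 2 or 3 or without WT EBSS replicate 1. In the starved RB1CC1KO-labelled line 9 were higher and 2 lower (31.6% of all genes called, 14.8% higher and 16.9% lower), and 4 were higher without its EBSS replicate 1. NDUFA13 (0.54 ± 0.21), ATP5MC2, COX8A (0.27 ± 0.09) and COX6A1 (0.26 ± 0.10) were the largest of the higher, and NDUFV3 (-0.30 ± 0.08, adjusted p = 0.0025) and ATP5IF1 (-0.25 ± 0.08, adjusted p = 0.013) were the lower 2. The calls of NDUFA13 and COX6A1 were each lost under 7 of 13 alternatives. Leaving out RB1CC1KO EBSS replicate 3 or WT EBSS replicate 2 left 1 lower. NDUFV3 stood at 22, 22 and 22.7 CPM in that line, below all starved WT libraries, and at 27.1, 29.5 and 28.6 CPM in starved ATG7KO.

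Respiratory chain subunits are mostly short proteins. Their median coding length was 430.5 bases, against 1446 bases for tested protein-coding genes, and 49 of 82 had at most 500 bases. In fed ATG7KO 15 of these 49 were higher (30.6%), against 72 of 893 other genes of that length (8.06%), with medians of 0.23 and 0.09. In the fed RB1CC1KO-labelled line the counts were 8 of 49 (16.3%) and 91 of 893 (10.2%), with medians of 0.19 and 0.06. After EBSS in WT 15 of 49 short members fell (30.6%), against 370 of 893 other short genes (41.4%), with medians of -0.05 and -0.18. In ATG7KO 28 of 49 fell (57.1%, against 46.4%), and in the RB1CC1KO-labelled line 18 of 49 (36.7%, against 45.5%). Short genes that are no members thus also leaned higher in the fed knockout-labelled lines and lower after EBSS.

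**Figure D4:**
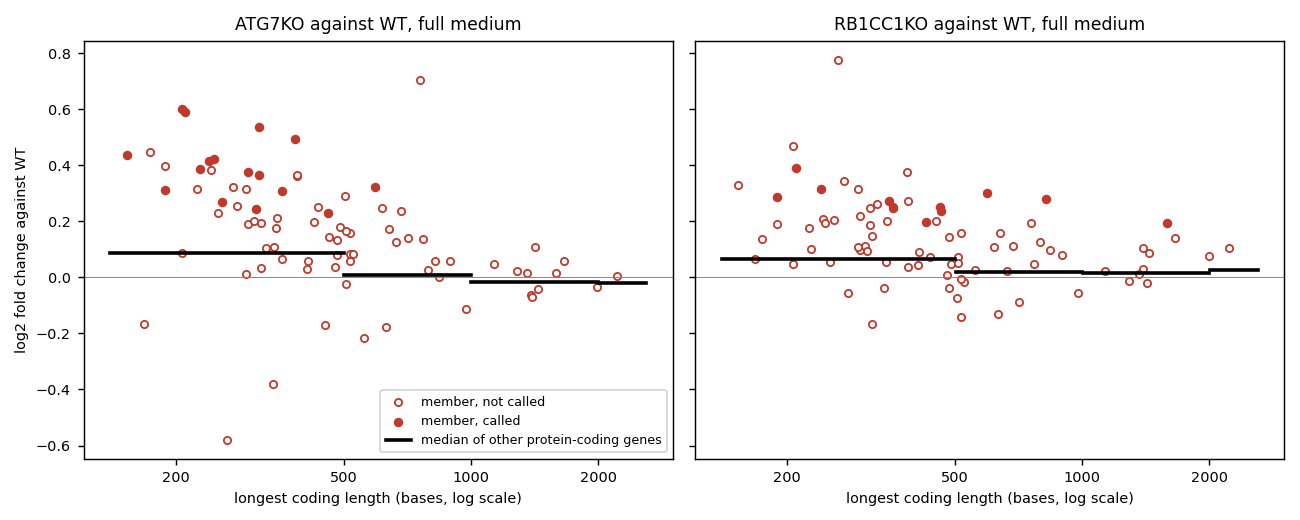
Log2 fold change of each member against WT in full medium (vertical axis) by its longest coding length in bases (horizontal log axis), filled where called, with black bars for the median of other protein-coding genes in each length range. In ATG7KO 15 of the 16 members called have at most 500 coding bases, and the other genes of that length have a median of 0.09.

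Genes that act beside the subunits were counted for comparison. After EBSS 32.4% of all genes rose and 32.1% fell in WT. These shares were 32.3% and 30.6% in ATG7KO, and 31.9% and 33.3% in the RB1CC1KO-labelled line. Assembly factors insert cofactors and join the subunits. Of 55 tested, 6 rose and 32 fell after EBSS in WT (median -0.35), 4 and 37 in ATG7KO (-0.41), and 5 and 38 in the RB1CC1KO-labelled line (-0.42). COA4, a complex IV assembly factor, fell by 2.24 on the log2 scale in WT, DMAC1, of complex I assembly, by 1.22 and SCO1, a copper chaperone of complex IV, by 0.98. COX19 (0.69 ± 0.10), COX10, which makes haem for complex IV (0.56 ± 0.08), and ECSIT, of complex I assembly (0.47 ± 0.08), rose. Of 15 genes for cytochrome c and coenzyme Q synthesis, 4 rose and 6 fell in WT, with COQ10B at 0.74 ± 0.10, COQ4 at -0.73 ± 0.09 and cytochrome c itself, CYCS, at -0.32 ± 0.08.

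The 13 subunit genes of the mitochondrial genome fell or were not called. In WT 5 of 13 fell (median -0.35, with 32.1% of all genes lower), led by MT-ND5 (-0.69 ± 0.20). In ATG7KO 7 fell (median -0.51, with 30.6% of all genes lower), and in the RB1CC1KO-labelled line 6 (-0.51, with 33.3%). For these 13 genes edgeR called none higher in any line, at an unadjusted p below 0.05 either. Of 16 tricarboxylic acid cycle genes 2 rose and 4 fell in WT, where 32.4% of all genes rose and 32.1% fell. Citrate synthase, CS, was at 0.19 ± 0.05, and the median of the 16 was 0.00. Of 16 transcriptional regulators of respiratory genes 7 rose and 3 fell in WT, beside the same shares of all genes. YY1 rose by 1.23 ± 0.06 on the log2 scale and GABPA, the DNA-binding subunit of GABP, by 0.75 ± 0.08, while MTERF1, a mitochondrial transcription factor, fell by 1.68 and PPARGC1B, a coactivator, by 0.66.

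**Figure D5:**
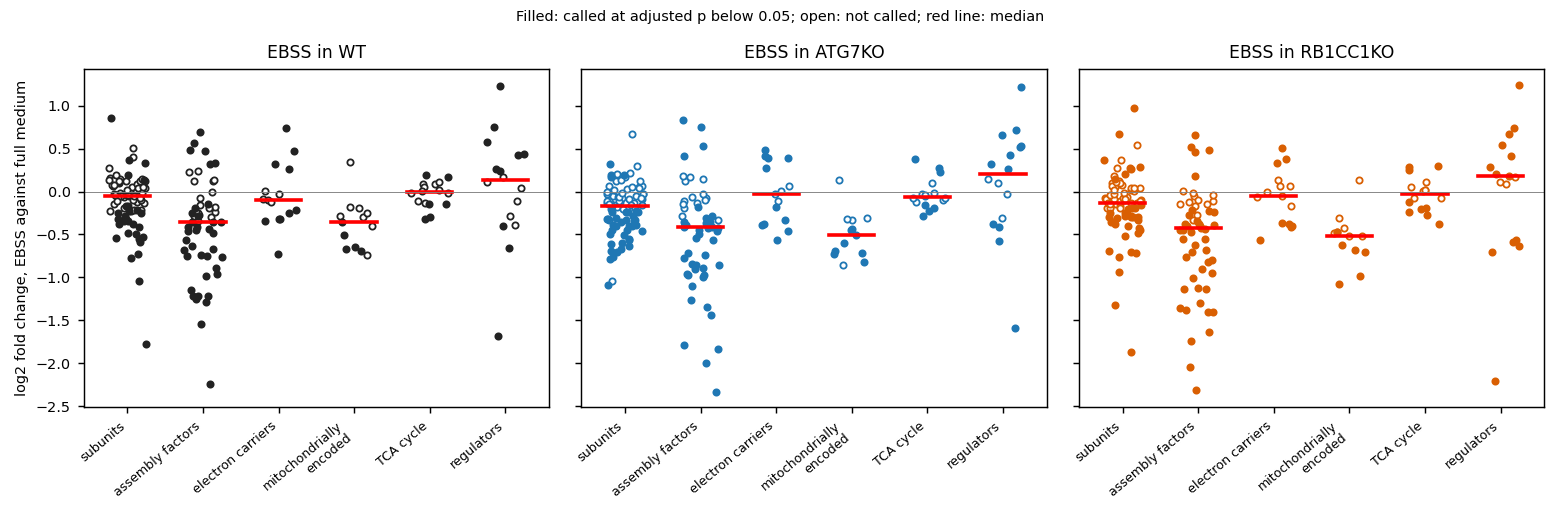
Log2 fold change after EBSS (vertical axis) of subunits and 5 related gene lists (horizontal axis) in each line, with 1 point per gene, filled where called, and a red line at each median. Assembly factors have medians of -0.35 to -0.42 and extend below -2, while the subunits have medians of -0.05 to -0.16.

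The related lists were also compared with WT in full medium, where 10.5% of all genes were called in ATG7KO and 17.2% in the RB1CC1KO-labelled line. Of 55 assembly factors 2 were higher and 2 lower in ATG7KO (10 and 4 at an unadjusted p below 0.05), and 2 and 1 in the RB1CC1KO-labelled line (7 and 3), with medians of 0.06 and 0.04. For the 13 mitochondrially encoded genes edgeR called none in either line, at an unadjusted p below 0.05 either. Their medians were -0.18 in ATG7KO and -0.01 in the RB1CC1KO-labelled line, and the difference from the nuclear-encoded subunits (0.15 in ATG7KO) was not tested. The share of reads from the mitochondrial genome overlapped between fed WT (3.52 to 4.26%) and fed ATG7KO (3.24 to 3.59%). Of 16 tricarboxylic acid cycle genes 1 was lower in ATG7KO, and 1 was higher and 2 lower in the RB1CC1KO-labelled line. Of 15 coenzyme Q and cytochrome c genes edgeR called 0 in ATG7KO (1 lower at an unadjusted p below 0.05), and 1 higher and 3 lower in the RB1CC1KO-labelled line. Of 16 regulators it called 0 in ATG7KO (3 lower at an unadjusted p below 0.05), and 1 higher in the RB1CC1KO-labelled line. In the RB1CC1KO-labelled line TTC19, a complex III assembly factor, was higher (0.42 ± 0.07), COX18 was lower (-0.50 ± 0.09), and of the coenzyme Q and cytochrome c genes COQ2 was lower (-0.43 ± 0.09) and CYCS higher (0.25 ± 0.08).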

How the data were processed

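For every one of the 18 libraries the deposited values are raw gene counts, which the authors did not normalize. Per the labels' protocols, poly(A) RNA of independent biological replicates was sequenced with a directional kit as single-end reads. The submitters' processing notes list HTSeq 0.6.1p1 and STAR 2.4.2a, beside DESeq2, edgeR and Picard, and the build GRCh37 (hg19), without the role of each. No source used here gives the strand setting or annotation release, so that reads of the 42 members with an overlapping gene on the other strand, and of the 30 with one on the same strand, may be shared or lost.

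Names and lengths came from GENCODE 29 (GRCh38), which matched 52526 of 63677 identifiers, with current symbols, and promoters from RefSeq. The 5 summary lines were left out. Of the uniquely aligned reads 9.39 to 15.1% fell in no gene. Depth ranged from 4892072 to 26005942 reads in genes, which limits the precision of members with few reads. Genes passing filterByExpr (15179) were fitted with edgeR 4.0.16 (limma 3.58.1, R 4.3.3), with TMM scaling, a mean for each of 6 groups and robust quasi-likelihood F tests, and p-values were adjusted by Benjamini and Hochberg's method over all genes in each of 10 comparisons. The common biological coefficient of variation was 6.72%. Each standard error is the log2 fold change over the root of F. The script was tested on simulated data. Groups and replicate numbers came from the sample labels.

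The members, lists and tests were chosen with earlier results of these data known. Members were named as follows: NDUFS1, SDHA and UQCRC1, the alternative isoforms and the c-subunit genes always; for EBSS in WT up to 3 called members per complex and direction with the largest change, and for other comparisons up to 4 per direction; the highest and lowest member per kilobase; and from other lists up to 3 per direction with the smallest p in WT and 2 otherwise. Further members (NDUFS8, SDHB to SDHD, UQCRC2, UQCRFS1, COX4I1, COX5A, NDUFV2, NDUFB2, ATP5PF, COX7B, COX7C and ATP5PD among them) were named after their values were seen. Alternatives were DESeq2 1.42.0, other scaling, other filters, fits of only the groups compared, a replicate block and each library left out. The values of 1 member and of 1 marker gene are not reported here, and both are kept in the counts.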

Additional observations from a re-analysis of the deposited data

Results flagged for a closer look

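In 3 genes of the related lists the response to EBSS differed between the RB1CC1KO-labelled line and WT by edgeR's test of the difference itself. The same test called 8.16% of all genes (2.68% higher, 5.47% lower), so that such calls are not particular to these lists. The difference on the log2 scale was -0.93 for COX19, a copper-handling factor of complex IV, -1.39 for SDHAF1, an assembly factor of complex II, and -0.30 for TWNK, the helicase of the mitochondrial genome. No subunit gene met this criterion. The call of TWNK was lost under 14 of 19 alternatives.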

How the results depend on the processing

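Most counts kept within 1.5 times of the main value and most medians within 0.0764, the SD of the library median. The exceptions follow, as log2 medians or numbers of members called, and their cause was not tested. Upper-quartile scaling put the EBSS medians at -0.21 in WT, -0.33 in ATG7KO and -0.27 in the RB1CC1KO-labelled line, with 2, 1 and 2 members higher and 40, 57 and 52 lower, reversed ATP5F1B in WT (-0.012) and gave 4 lower for RB1CC1KO against fed ATG7KO, as did size factors of the DESeq2 type and a filter of 10 reads in 3 libraries. For that comparison DESeq2 gave 0 lower, no filter 9 and only the groups compared 13. In fed ATG7KO against WT, 25 were higher with no filter and 26 with only the groups compared, and in the fed RB1CC1KO-labelled line 17 with no filter. In WT after EBSS 3 rose with no filter and 3 with the filter of 10 reads. In starved ATG7KO against WT 1 was higher with DESeq2 and 1 with that filter. For differences of response, no filter gave 1 higher and 1 lower for ATG7KO and 1 lower for the RB1CC1KO-labelled line.

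With each library left out in turn, the members that rose after EBSS numbered 2 to 8 in WT, 1 to 5 in ATG7KO (median -0.25 to -0.11) and 3 to 10 in the RB1CC1KO-labelled line (19 to 32 fell, median -0.16 to -0.045). Against WT in full medium 7 to 19 were higher in ATG7KO and 1 to 15 in the RB1CC1KO-labelled line; after EBSS 1 to 4 (median -0.016 to 0.078) and 4 to 13 (1 to 3 lower). For RB1CC1KO against ATG7KO 0 to 4 were higher and 0 to 5 lower (median -0.12 to -0.032). For differences of response 0 to 1 were lower for ATG7KO, and 0 to 1 higher and 0 to 1 lower for the RB1CC1KO-labelled line (median -0.087 to 0.041).

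Same-numbered libraries did not pair throughout: their correlations of deviations ran from -0.13 to 0.22 and 5 of 45 were above 0.1. The replicate 2 libraries of all groups but ATG7KO EBSS did correlate positively with each other. These values ran from 0.025 (fed WT and fed ATG7KO) to 0.22 (fed and starved RB1CC1KO-labelled line). ATG7KO EBSS replicate 1 correlated with replicate 2 of the RB1CC1KO-labelled line at 0.19 fed and 0.18 starved. Its correlations with replicate 2 were also positive for fed WT (0.064), starved WT (0.048) and fed ATG7KO (0.085). What these libraries share was not tested. A replicate block gave 1 member higher and 1 lower for the difference of response in ATG7KO and moved no other count of calls by over 1.5 times. The block follows the replicate numbers and does not join ATG7KO EBSS replicate 1 to the replicate 2 libraries. It therefore cannot show how the counts depend on what these libraries share. With the length of the longest transcript in place of all exons, levels per kilobase are higher by construction, and CYC1 was 3 in the order of complex III in place of 1. Few counted reads limit COX6B2, NDUFA4L2, NDUFV2 and UQCRHL most.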
